A study of Brassica napus with 36 samples.

Results

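Leaves of the rapeseed (Brassica napus) variety HX17 were compared between seedlings frozen at -4 °C (HX17_FB) and seedlings chilled at 4 °C (HX17_CB), with 3 libraries in each group. The 6 libraries were chosen by their labels from the 36 of the series. Seedlings of both groups had grown for 6 weeks at 20/16 °C, had not been acclimated, and stood at their low temperature for 12 h before the leaf at position 3 from the top was taken in the morning. The labels give the variety, the tissue and the temperature of these groups, and the growth and the 12 h come from the methods of the study. The other groups used here are untreated HX17 seedlings (HX17_MB), HX58 seedlings given the same pair of treatments (HX58_CB and HX58_FB), and HX17 seedlings that spent 12 h at 4 °C or -4 °C after 4 weeks of growth and 14 days of acclimation at 4 °C (HX17_CA and HX17_FA). The study calls the replicates biological in its methods and technical in its results, and nothing says which plants each one came from, so the p-values measure the spread between these libraries, which may be technical.

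Chilled leaves already carry part of the cold response, so the comparison asks what freezing adds to it. In Arabidopsis, cold induces the CBF (DREB1) transcription factors, which switch on cold-regulated COR, KIN and dehydrin genes whose products protect membranes and proteins. Below the freezing point, ice forms between cells and draws water out of them, and the leaf then meets a drought-like loss of water, a rise of calcium in the cytosol and mechanical strain of the cell wall. Abscisic acid (ABA), the hormone of water loss, acts through its PYR/PYL receptors, which block phosphatases of the PP2C family and so release SnRK2 kinases.

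Freezing changed 1463 of 51346 tested genes (2.85%), of which 1223 rose (2.38%) and 240 fell (0.467%). A gene is said to rise or fall where it changed at least 2-fold at an adjusted p under 0.005 in the quasi-likelihood test of edgeR with Benjamini-Hochberg adjustment. Of 106340 listed genes, 34114 had no count in the 6 libraries. Counts summed to between 35720510 and 59290772 per library, within the range of all 36 libraries (32214015 to 59290772), and 60199 to 62778 genes were counted in a CB library and 60805 to 61881 in an FB library. Across genes, libraries of 1 group correlated at 0.928 to 0.940 and libraries of different groups at 0.816 to 0.859. The median log2 fold change of all tested genes was -0.03. Levels below are CPM, counts scaled to a fixed library total across all 36 libraries, and log2 fold changes are given with their SE. Counts of rises and falls in a gene group can be read against the 2.38% and 0.467% above.

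The rises were larger than the falls. With groups at 0 counts set to 3 counts over the group, the median rise was 14.7-fold and the median fall 5.65-fold. Of the genes that rose, 1102 did so at least 4-fold and 419 at least 32-fold, against 165 and 14 of those that fell. Genes that rose took 0.929% to 0.983% of all counts in the chilled libraries and 6.53% to 9.36% in the frozen ones, and genes that fell took 0.692% to 0.746% and 0.137% to 0.142%. No count at all was found in the 3 chilled libraries for 63 of the genes that rose, while 2 of the genes that fell had none in the 3 frozen libraries. In all 1463 genes the groups did not overlap, which was also the case for 16.6% of tested genes with FB above CB and 15.4% with FB below CB. With each library left out in turn, 519 rises and 33 falls passed every time, and single fits gave 701 to 860 rises and 70 to 120 falls. The ratio of rises to falls was lower in DESeq2 (2879 and 1380) and in 1 model of all 36 libraries (2204 and 984). It was also lower at an adjusted p under 0.05 without a fold limit (2936 and 1767) and without a count filter (1852 and 555). The ratio was higher with a replicate block (695 and 61) and in every fit with 1 library left out.

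**Figure D1:**
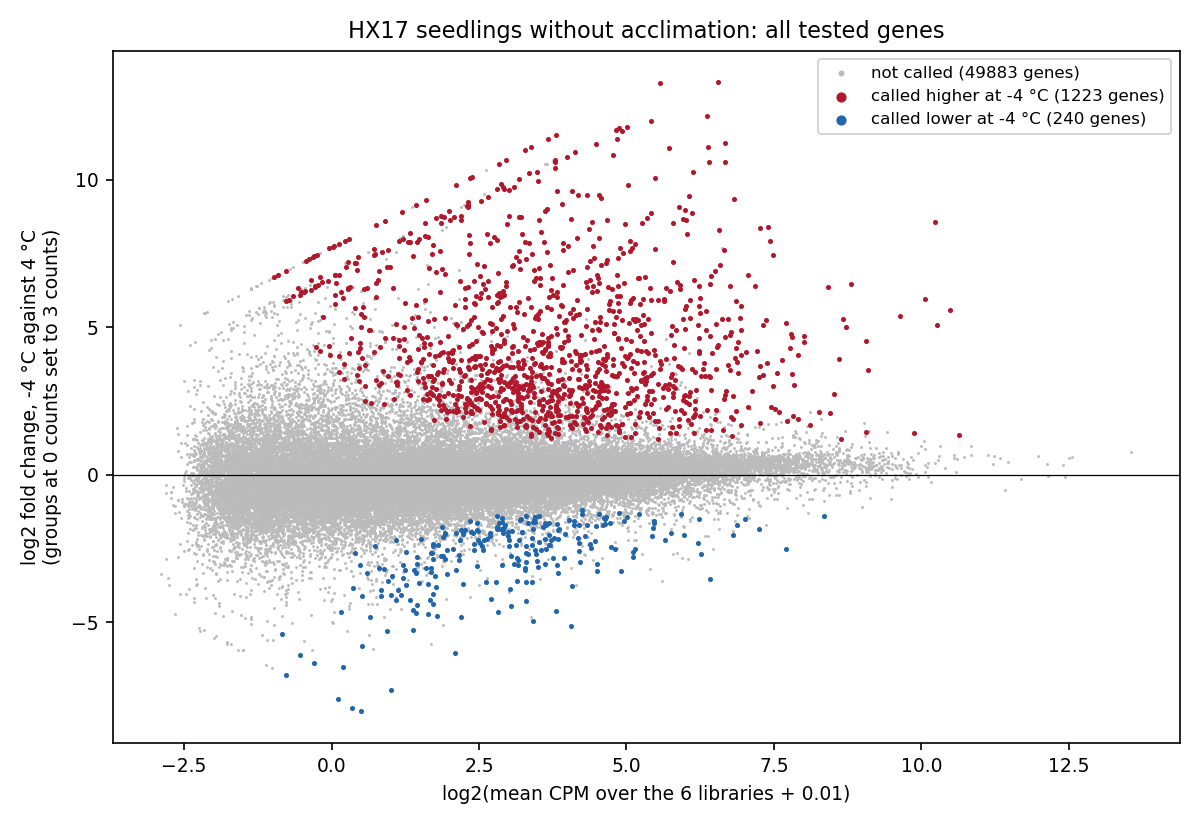
Log2 fold change of HX17_FB over HX17_CB (vertical axis) against log2(mean CPM + 0.01) over the 6 libraries (horizontal axis) for 51346 tested genes, with groups of 0 counts set to 3 counts. The 1223 genes that rose reach farther from 0 than the 240 that fell, and no gene was called at the lowest mean levels.

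The CBF/DREB1 activators had the highest median of the gene groups examined. Of 17 loci 16 were tested, 12 rose and none fell, with a median log2 fold change of 8.49 (groups of 0 counts at 3 counts) against -0.03 for all tested genes. DREB1B (CBF1, BnaA08g30930D, chromosome A08_random, 1771443 to 1772198) stood at 0.623, 0.813 and 0.582 CPM in the chilled libraries and at 37.8, 77.0 and 69.4 CPM in the frozen ones. All frozen libraries were far above all chilled ones, and the log2 fold change was 6.50 ± 0.37 (edgeR, adjusted p = 5.47e-05). Untreated leaves held 0, 0.0286 and 0.0275 CPM of it.

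DREB1D (CBF4), which in Arabidopsis is tied to drought and ABA as well as cold, had no count in any chilled library at BnaA10g07630D (chromosome A10, 6107845 to 6108507) and 57.6, 140.2 and 59.6 CPM in the frozen libraries, at least 4085-fold higher. This and later bounds set the empty group to 3 counts, and since both mates of a read pair may have been counted, they cover counting error only and may be too high. The second frozen library held the most. Its C-subgenome locus BnaC09g28190D also had no count after chilling and 31.7, 107 and 32.2 CPM after freezing, at least 2647-fold higher. The order of the frozen libraries was thus shared by both DREB1D loci. DREB1F, a related factor that in Arabidopsis represses growth, rose at least 3195-fold at BnaC08g15650D and at least 2404-fold at BnaAnng36290D, from 0 counts in the chilled leaves. DREB1A (CBF3, BnaA08g30950D) rose at least 1348-fold, from 0 counts to 20.9, 34.4 and 27.6 CPM.

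DREB1C (CBF2, BnaAnng34260D) differed in that chilled leaves already held it. It stood at 7.01, 6.63 and 5.07 CPM in the chilled and 43.2, 53.4 and 76.8 CPM in the frozen libraries, without overlap, and rose by 3.20 ± 0.28 on the log2 scale (edgeR, adjusted p = 0.000318). One DREB1B locus pointed the other way. BnaC03g71900D had 3.58, 3.98 and 3.81 CPM after chilling and 0.818, 0.871 and 2.37 CPM after freezing, with a log2 fold change of -1.50 ± 0.45 that missed the threshold (edgeR, adjusted p = 0.0763). Near-identical copies in the A and C subgenomes may share reads, and the counts of one may belong in part to the other.

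No regulator upstream of the CBF genes passed the test. Of 42 loci 22 were tested and none rose or fell in edgeR, with a median log2 fold change of -0.21. At an unadjusted p under 0.05, 1 locus was higher and 3 were lower, and DESeq2 called 1 in each direction. SCRM (ICE1, BnaC01g30750D), the bHLH activator of CBF3 in Arabidopsis, stood at 4.85, 5.28 and 5.91 CPM after chilling and 1.92, 2.34 and 2.12 CPM after freezing. The groups were apart, and the log2 fold change of -1.34 ± 0.25 missed the threshold (edgeR, adjusted p = 0.0126).

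Factors that act beside the CBFs in the cold rose as well. Of 32 loci for ZAT10, ZAT12, ZAT6, HSFC1, RAV1 and related factors, 24 were tested, 14 rose and 1 fell, with a median log2 fold change of 3.56. Of the 14 rises, 5 passed with each library left out. ZAT10 (BnaA08g18790D), a zinc finger repressor of stress responses, had 1.14, 0.73 and 3.36 CPM after chilling and 49.99, 205 and 189.7 CPM after freezing. Untreated leaves held 43.7, 45.9 and 47.9 CPM of it, near the first frozen library and far above the chilled ones. The first frozen library lagged the other two, and the call of ZAT10 (log2 fold change 6.40 ± 0.79, edgeR, adjusted p = 0.00153) held in 3 of the 6 fits with 1 library left out, with an adjusted p of up to 0.0102. HSFC1 (BnaA07g05580D), a heat shock factor of class C, rose evenly, from 2.04, 1.21 and 1.83 to 20.9, 20.4 and 16.6 CPM (log2 fold change 3.48 ± 0.27, edgeR, adjusted p = 0.000164). The locus that fell was RAV1 (BnaAnng40580D), a negative regulator of growth in Arabidopsis, at a log2 fold change of -2.31 ± 0.35 (edgeR, adjusted p = 0.00434), and it did not keep its call in any fit with 1 library left out.

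Among the proteins that the CBFs and ABA control, dehydrins and LTI65 rose by large factors and no COR15 locus passed. Of 53 loci in the COR, KIN and dehydrin group 34 were tested, 14 rose and none fell, with a median log2 fold change of 1.42. The 14 comprise 2 loci of LTI65, 4 of ERD10, 5 of ERD14, 2 of COR413PM1 and 1 of KIN2. LTI65 (RD29B, BnaC02g15270D, chromosome C02, 10763665 to 10765889), a classical ABA-responsive gene of water loss, had 66.4, 51.4 and 56.4 CPM in the chilled and 3105, 2788 and 2523 CPM in the frozen libraries. The replicates lay close together in both groups, and the log2 fold change was 5.57 ± 0.23 (edgeR, adjusted p = 2.96e-05). Untreated leaves held 3.14, 13.4 and 5.06 CPM. The LTI65 locus on chromosome A02 (BnaA02g10970D) rose from 32.7, 39.1 and 28.1 to 2454, 2083 and 1807 CPM.

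ERD10 (BnaC05g15780D, chromosome C05, 9625279 to 9626401), an acidic dehydrin, stood at 60.04, 115 and 46.2 CPM in untreated and at 67.6, 68.4 and 73.1 CPM in chilled leaves, but at 3215, 2261 and 1714 CPM in frozen leaves. Chilled libraries lay within the range of the untreated ones, and frozen libraries did not overlap with either. The log2 fold change of freezing over chilling was 5.08 ± 0.28 (edgeR, adjusted p = 4.89e-05). ERD14 (BnaA07g32420D), its close relative, had 39.5, 43.2 and 46.7 CPM after chilling and 1341, 947 and 796 CPM after freezing (log2 fold change 4.55 ± 0.25, edgeR, adjusted p = 4.89e-05).

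COR15B and KIN2 were already abundant after chilling. COR15B (BnaA03g56750D), which protects chloroplast membranes, had 6.82, 5.01 and 3.08 CPM in untreated, 894, 1290.0 and 1241 CPM in chilled and 1986, 2162 and 1396 CPM in frozen leaves. The chilled and frozen libraries were apart, yet the log2 fold change of 0.67 ± 0.23 did not pass (edgeR, adjusted p = 0.113). KIN2 (BnaAnng37980D) stood at 769, 908 and 960.1 CPM after chilling and 2704, 2170.0 and 2018 CPM after freezing. Its rise of 1.36 ± 0.19 on the log2 scale passed (edgeR, adjusted p = 0.00318), but with any library left out the adjusted p ran from 0.00696 to 0.0224.

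**Figure D2:**
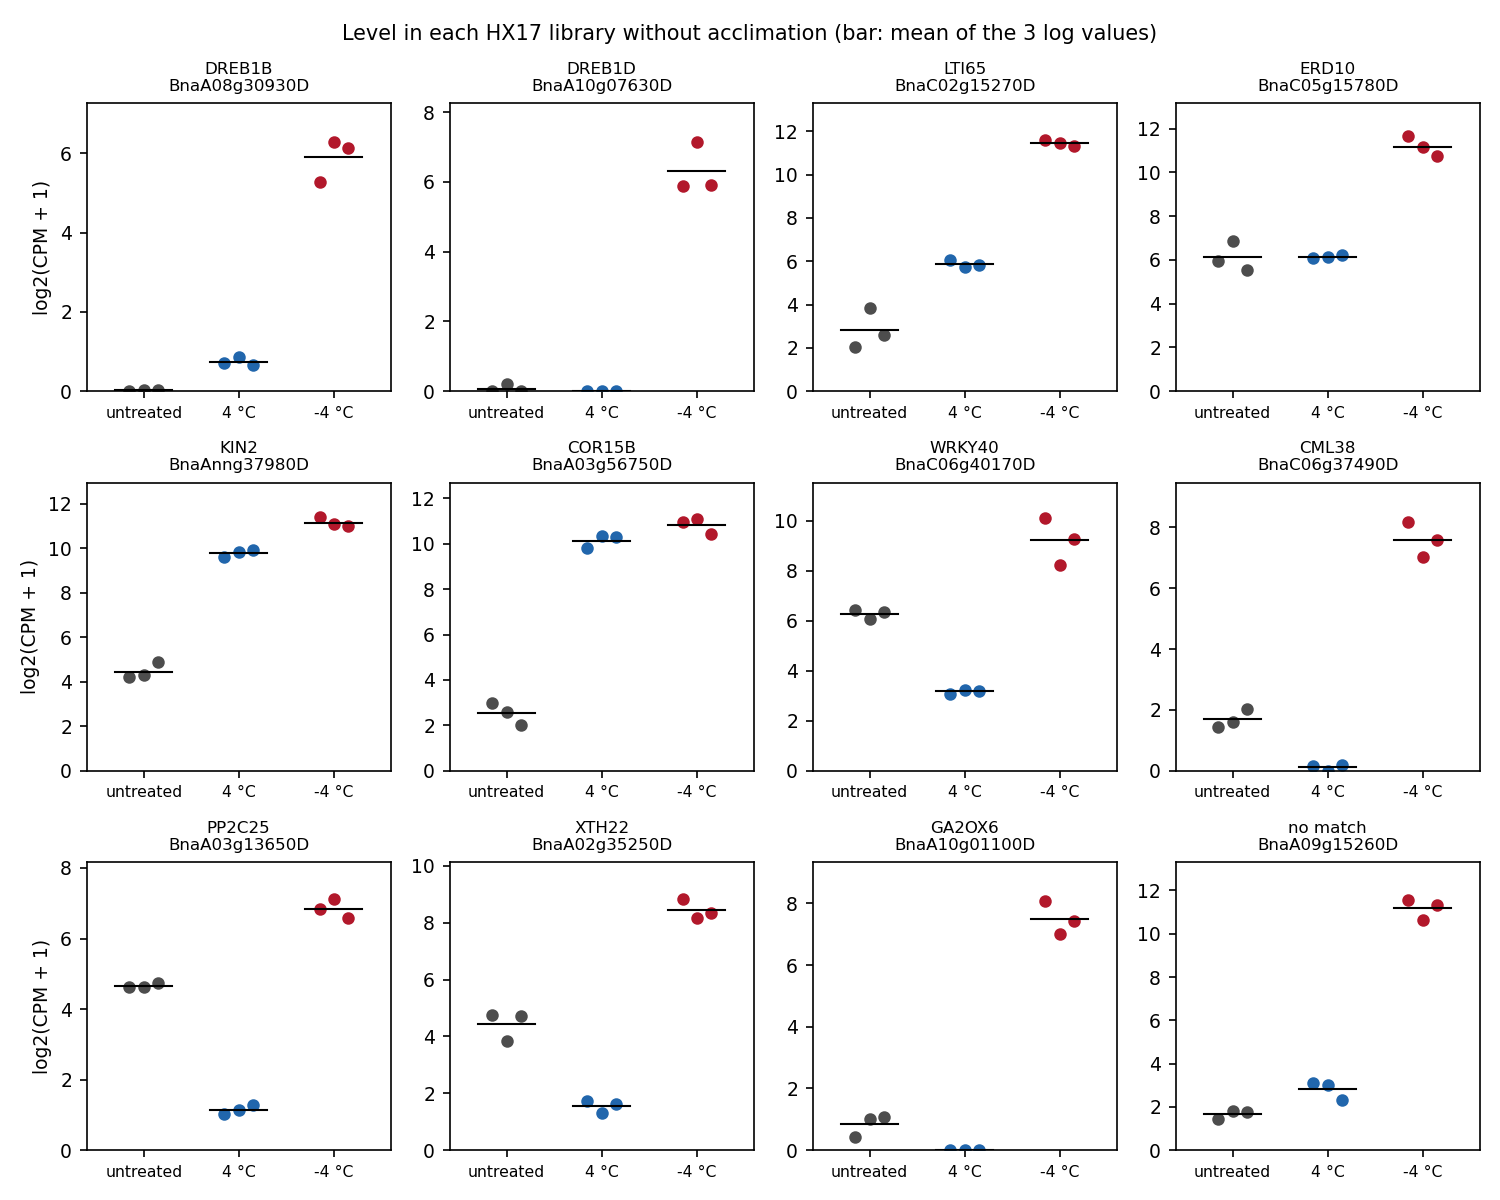
Log2(CPM + 1) of 12 genes in each library (points) with the group mean (line) for untreated (HX17_MB), chilled (HX17_CB, 4 °C) and frozen (HX17_FB, -4 °C) seedlings, 3 libraries each. DREB1B, LTI65, ERD10, CML38 and XTH22 are far higher in the frozen than in the other libraries, whereas KIN2 and COR15B are already high in the chilled ones, and COR15B did not pass the test.

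Genes with the highest levels in frozen leaves included 1 without a Swiss-Prot match. BnaA09g15260D (chromosome A09) rose from 7.65, 7.07 and 3.94 CPM to 3062, 1612 and 2542 CPM, a log2 fold change of 8.57 ± 0.42 (edgeR, adjusted p = 4.81e-05). It ranked with LTI65 and ERD10 among the 5 genes with the highest mean level of all that rose. Galactinol synthase, the first enzyme of raffinose synthesis, rose at 3 of 15 tested loci of that pathway. GOLS2 (BnaCnng63310D) rose from 0.277, 0.250 and 0.366 to 37.1, 9.82 and 6.32 CPM, and the first frozen library was well above the others. GOLS2 passed (log2 fold change 5.85 ± 0.72, edgeR, adjusted p = 0.00156) and kept its call in 3 of 6 fits with 1 library left out.

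Calcium sensors rose at many loci. Of 104 tested calmodulin and calmodulin-like loci 32 rose and none fell, with a median log2 fold change of 0.91, and 21 of the 32 passed with each library left out. CML38 (BnaC06g37490D, chromosome C06, 35498436 to 35498978), a calcium sensor of wounding and hypoxia in Arabidopsis, had 0.104, 0 and 0.129 CPM after chilling and 292, 129.6 and 189 CPM after freezing. The groups were apart, with a fitted log2 fold change of 11.26 ± 0.68 (edgeR, adjusted p = 6.07e-05), from 12 counts in the chilled group. CML24 (TCH2, BnaUnng00020D), named for its induction by touch, rose from 1.3, 0.834 and 2 CPM to 493, 273 and 262 CPM (log2 fold change 7.92 ± 0.46). CML27 (BnaA08g22720D) and CML49 (BnaA01g31850D) started higher, at 14.7 to 22.4 and 19.6 to 23.3 CPM, and reached 372 to 736 and 335 to 787 CPM. The first frozen library was the highest for all 4 of these genes, and their frozen libraries all lay above the untreated ones. Other loci of the 32 stayed below the untreated level after freezing. CML30 (BnaC07g25470D) had 31.34, 29.47 and 34.07 CPM in untreated, no count in chilled and 2.036, 8.951 and 5.674 CPM in frozen leaves. PBP1 (BnaC01g19450D) had 42.32, 41.42 and 40.37 CPM in untreated and 9.533, 23.25 and 15.62 CPM in frozen leaves. Comparisons with untreated leaves were not tested.

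Kinases that decode calcium rose at some loci. Of 150 tested calcium-dependent and CBL-interacting kinase loci 9 rose (6.0%, against 2.38% of all tested genes) and none fell. The median was 0.01, and none of the 9 passed with every library left out. CPK15 (BnaC01g13360D) went from 7.63, 6.38 and 5.17 to 36.2, 25.9 and 25.8 CPM (log2 fold change 2.17 ± 0.24, edgeR, adjusted p = 0.000813), above the untreated libraries (8.32, 6.13 and 8.14 CPM). CPK5 (BnaC01g03240D) rose too but stayed below them, with 31.4, 37.0 and 61.8 CPM in untreated and 18.7, 17.9 and 18.7 CPM in frozen leaves. Differences from untreated leaves were not tested. CIPK9 (BnaCnng58360D), a kinase of potassium nutrition and the most abundant of the group per length, stood at 63.8, 44.7 and 58.6 CPM and at 153, 150.3 and 114 CPM, and its adjusted p of 0.00705 (edgeR) missed the threshold. ACA8 (BnaC02g11860D), a plasma membrane calcium pump chosen after its values were seen, rose from 25.1, 25.4 and 24.2 to 201, 181 and 163 CPM (log2 fold change 2.84 ± 0.18, edgeR, adjusted p = 7.58e-05).

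ABA receptors fell at 5 of 36 tested loci, and loci of an ABA-degrading enzyme rose. No PYR/PYL receptor locus rose, the median log2 fold change was -0.95, and 4 loci were above 0. PYL4 (BnaC04g56560D, chromosome C04_random, 4192034 to 4192648) had 21.8, 28.4 and 30.4 CPM in the chilled and 1.31, 0.691 and 1.32 CPM in the frozen libraries. The groups did not overlap, and the log2 fold change was -4.61 ± 0.31 (edgeR, adjusted p = 9.48e-05). Untreated leaves held 4.37, 6.79 and 5.67 CPM of it, below the chilled and above the frozen libraries. A further PYL4 locus (BnaA03g17720D), PYR1 (BnaC08g11070D), PYL5 (BnaAnng40650D) and PYL6 (BnaA05g05420D) fell by 3.17 to 5.82 on the log2 scale, from levels of at most 7.59 CPM. Untreated leaves held at most 0.286 CPM of PYL5 and 0.165 CPM of PYL6, and for both the frozen and untreated libraries overlapped. The further PYL4 locus and PYR1 were lower in frozen than in untreated leaves, which held at least 2.245 and 3.12 CPM of them. Of the 5, only the first PYL4 locus passed with each library left out. PYL1 (BnaC09g19620D), the receptor with the highest level per length, stood at 65.3, 39.3 and 45.2 CPM and at 32.6, 43.5 and 38.8 CPM, and the groups overlapped.

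PP2C phosphatases rose at 18 of 185 tested loci and fell at none, with a median of 0.04, and 12 of the 18 passed with each library left out. Of the 18, 7 match protein phosphatase 2C 25 and 4 match protein phosphatase 2C 63, and neither of these belongs to the PP2C clade that binds ABA receptors in Arabidopsis. No locus matching ABI1, ABI2, HAB1, HAB2 or PP2CA of that clade was among the 18, and PP2CA at BnaA05g27660D, named after its values were seen, had a log2 fold change of 3.14 that did not pass (edgeR, adjusted p = 0.0125). Protein phosphatase 2C 25 (BnaA03g13650D) stood at 23.8, 23.6 and 25.9 CPM in untreated, 1.02, 1.21 and 1.42 CPM in chilled and 114, 137 and 93.9 CPM in frozen leaves. The chilled libraries were the lowest and the frozen ones the highest of the 9, freezing over chilling gave a log2 fold change of 6.54 ± 0.28 (edgeR, adjusted p = 2.96e-05), and comparisons with the untreated libraries were not tested. At BnaC04g40810D and BnaA04g17200D, which match the same phosphatase and also rose, the frozen and untreated libraries overlapped. Protein phosphatase 2C 63 (BnaA08g11740D) rose from 3.88, 3.04 and 3.92 to 140.5, 97.5 and 94.5 CPM.

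Synthesis and breakdown of ABA gave 6 rises among 28 tested loci and no fall, with a median of 1.595. With each library left out, 2 of the 6 passed. Of the 6, 5 match CYP707A3, which inactivates ABA, and 1 matches ABA2, which forms its precursor. CYP707A3 (BnaA09g17560D) rose from 0.242, 0.313 and 0.108 to 22.1, 10.7 and 31.2 CPM (log2 fold change 6.55 ± 0.53, edgeR, adjusted p = 0.000213). ABA2 (BnaA06g01590D) rose from 0.675, 0.709 and 0.194 to 7.57, 3.67 and 4.65 CPM, and it did not keep its call with any library left out. Of 46 tested SnRK2 and ABI5/ABF loci 5 rose, with a median of -0.04, and 2 of the 5 passed with each library left out. ABI5 (BnaA05g08020D), a bZIP factor of ABA responses, rose from 1.02, 1 and 0.345 to 55.6, 30.2 and 18.2 CPM (log2 fold change 5.42 ± 0.54), while SRK2G (BnaA10g22850D), the kinase locus with the highest level per length, stood at 89.2, 101.1 and 95.4 CPM and at 99.7, 90.3 and 76.2 CPM.

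WRKY factors, regulators of defence and wounding, rose at 21 of 148 tested loci and fell at none, with a median of 0.31, and 14 of the 21 passed with each library left out. WRKY40 (BnaC06g40170D, chromosome C06, 36908857 to 36910442) had 7.46, 8.34 and 8.19 CPM in the chilled and 1105, 300.0 and 618 CPM in the frozen libraries. The frozen replicates spread widely and still lay above all the chilled ones (log2 fold change 6.37 ± 0.49, edgeR, adjusted p = 0.000163). Untreated leaves held 84.8, 65.7 and 80.2 CPM, between the chilled and the frozen levels. WRKY33 (BnaA05g34850D) had the same order, with 24.3, 23.0 and 43.8 CPM in untreated, 0.156, 0.313 and 0.0431 CPM in chilled and 60.3, 43.7 and 33.9 CPM in frozen leaves, but its frozen and untreated libraries overlapped. Other WRKY loci that rose lay below the untreated level after freezing, such as WRKY33 at BnaC03g21360D, with 71.1, 81.4 and 93.6 CPM in untreated, 3.46, 5.94 and 8.32 CPM in chilled and 31.2, 53.1 and 26.2 CPM in frozen leaves, and WRKY53 at BnaC07g38550D, with 7.90, 13.1 and 14.7 CPM in untreated and 1.20, 4.15 and 1.78 CPM in frozen leaves. WRKY23 (BnaA04g26970D) rose from 0, 0.0417 and 0.302 to 202, 92.2 and 125 CPM.

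Ethylene-responsive factors went both ways. Of 197 tested loci 29 rose and 10 fell, with a median of 0.25. Of the 29 rises 7 match ERF4 and 6 match ERF11, both repressors of ethylene responses. ERF11 (BnaA07g08440D) rose from 0.658, 0.417 and 0.668 to 36.1, 58.7 and 39.2 CPM (log2 fold change 6.24 ± 0.34, edgeR, adjusted p = 4.89e-05), and ERF4 (BnaC03g39000D) from 1.78, 1.27 and 2.54 to 56.8, 40.8 and 63.0 CPM. Of the 10 falls 2 match ERF094 (ORA59), an activator of jasmonate and ethylene defence genes. At BnaA09g50010D ERF094 went from 5.04, 5.8 and 14.2 to 0.19, 0.12 and 0.0538 CPM (log2 fold change -6.04 ± 0.61, edgeR, adjusted p = 0.000566). Its locus on chromosome A10 (BnaA10g04090D) went from 1.54, 2.29 and 2.97 CPM to 0 counts, at least 90.8-fold lower. ERF106 (BnaCnng36390D), abundant after chilling at 42.9, 64.4 and 56.2 CPM, stood at 2.78, 5.05 and 9.47 CPM after freezing. In untreated leaves ERF106 had 6.225, 4.039 and 8.304 CPM, and the ERF094 loci at most 0.3025 and 0.0275 CPM. For each of these loci the frozen and untreated libraries overlapped. ERF104 (BnaAnng06940D), which also fell, was lower in frozen than in untreated leaves, which held at least 55.9 CPM of it. Differences from untreated leaves were not tested.

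NAC factors rose at 16 of 144 tested loci and fell at none, with a median of 0.04. Of the 16, 6 passed with each library left out. NAC062, a membrane-bound factor that is released by cold in Arabidopsis, made up 7 of the 16, and at BnaA06g21090D it rose from 1.25, 0.75 and 1.31 to 79.3, 39.9 and 42.0 CPM (log2 fold change 5.57 ± 0.38, edgeR, adjusted p = 0.000103). The untreated libraries held 9.70, 13.1 and 16.8 CPM at that locus, below the frozen ones. At some other NAC062 loci that rose the frozen and untreated libraries overlapped. BnaA06g15870D had 23.1, 20.4 and 30.7 CPM in untreated, 1.63, 2.46 and 2.61 CPM in chilled and 24.2, 21.3 and 11.2 CPM in frozen leaves. Differences from untreated leaves were not tested. Heat shock factors rose at 6 of 52 tested loci, 4 of them HSFC1 and 2 HSFA4A, and few heat shock proteins passed. The HSFC1 loci were also counted above among the factors beside the CBFs. With each library left out, 3 of the 6 passed. Of 22 tested small heat shock proteins 1 rose (HSP17.4B, BnaA08g00950D, from 1.75, 1.15 and 0.776 to 37.3, 10.4 and 19.8 CPM), and of 78 tested large chaperones none rose or fell in edgeR. At an unadjusted p under 0.05, 8 large chaperones were higher and 4 lower, and DESeq2 called 1 in each direction.

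Jasmonate genes rose at some loci. Of 22 tested loci of its synthesis 3 rose (13.6%), all lipoxygenases. Of 44 tested JAZ/TIFY repressors 7 rose (15.9%) and none fell, with a median of 0.64. Among all tested genes 2.38% rose. With each library left out, 1 of the 3 and 2 of the 7 passed every time. LOX3 (BnaA09g45010D), which makes the first intermediate, had 0, 0 and 0.129 CPM after chilling and 23.4, 17.1 and 14.7 CPM after freezing (edgeR, adjusted p = 0.000267). TIFY10A (JAZ1, BnaC08g36840D) rose from 0.208, 0.167 and 0.431 to 69.2, 20.2 and 34.8 CPM (log2 fold change 7.24 ± 0.59, edgeR, adjusted p = 0.000219).

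Cell wall and hormone genes of growth changed at single loci by large factors. Of 88 tested xyloglucan enzyme and expansin loci 10 rose and 1 fell, with a median of 0.59, and 8 of the 11 passed with each library left out. XTH22 (TCH4, BnaA02g35250D, chromosome A02_random, 153189 to 154120), a touch-induced xyloglucan transferase, had 2.34, 1.5 and 2.09 CPM after chilling and 453, 283 and 327 CPM after freezing. The groups did not overlap, with a log2 fold change of 7.46 ± 0.32 (edgeR, adjusted p = 2.96e-05). Altogether 5 XTH22 loci, 2 of XTH17 and 2 of XTH18 rose. XTH33 (BnaC08g14380D) fell from 23.1, 8.15 and 5.93 to 0.609, 0.601 and 0.834 CPM (log2 fold change -4.20 ± 0.55, edgeR, adjusted p = 0.00214).

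GA2OX6, an enzyme that inactivates gibberellin, ranked first by fitted fold change among all tested genes. BnaA10g01100D (chromosome A10, 569329 to 571703) had no count in the chilled libraries and 269, 127 and 170.1 CPM in the frozen ones, at least 10170.0-fold higher. Untreated leaves held 0.329, 1.03 and 1.1 CPM. The second GA2OX6 locus (BnaC05g01200D) rose from 0 counts to 48.6, 18.4 and 28.5 CPM, at least 1741-fold. Among 106 tested auxin-responsive IAA and SAUR loci 4 rose (3.77%) and 2 fell (1.89%), with a median of -0.00072. Of all tested genes 2.38% rose and 0.467% fell. SAUR36 (BnaCnng72960D), which promotes leaf senescence in Arabidopsis, had 7.69, 9.54 and 2.45 CPM in untreated leaves, no count in chilled leaves and 48.6, 15.5 and 18.6 CPM in frozen leaves, at least 1551-fold above the chilled ones.

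**Figure D3:**
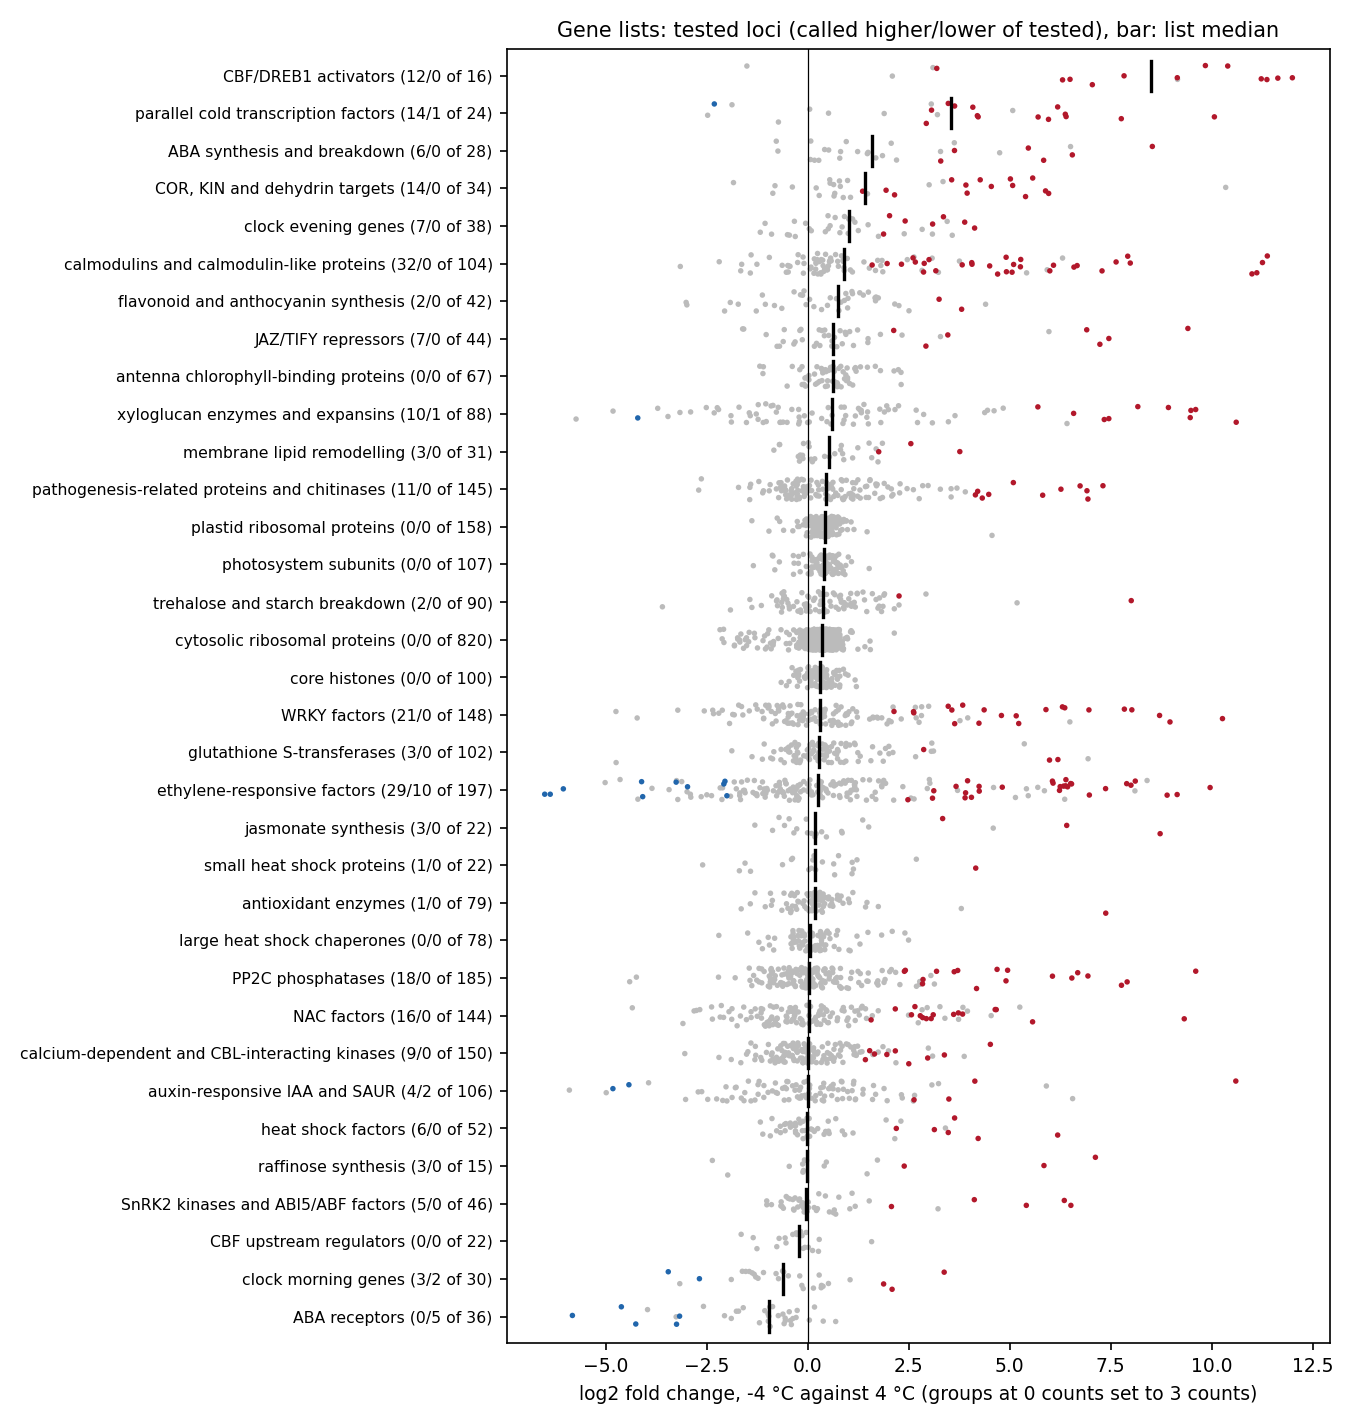
Log2 fold change of HX17_FB over HX17_CB for each tested locus (points) of the gene groups, with the median of each group (bar) and 0 counts set to 3 counts. The CBF/DREB1 activators lie highest, with a median of 8.49, the ABA receptors lowest, at -0.95, and the ribosomal, photosystem and antenna groups have medians of 0.35 to 0.62 with no locus called (red, rose; blue, fell; grey, not called).

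Where edgeR called no fall in a group, DESeq2 called some. It called 5 falls among the WRKY factors, 4 among the calmodulin-like proteins, 3 each among the NAC factors and the calcium-dependent kinases and 2 among the PP2C phosphatases, and none among the CBF/DREB1, COR and dehydrin, ABA synthesis, JAZ/TIFY and evening clock loci. At an unadjusted p under 0.05 in edgeR these groups held 18, 7, 22, 15, 25, 1, 2, 0, 3 and 3 lower loci, in that order. The small heat shock proteins and jasmonate synthesis held 2 lower loci each at that level and 1 DESeq2 fall each. Of the ABA receptors, where edgeR called no rise, no locus was higher at that level, 17 were lower, and DESeq2 called 9 falls.

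Clock genes of the evening rose at 7 loci, and those of the morning went both ways. Of 38 tested evening loci none fell, with a median of 1.01, and of 30 tested morning loci 3 rose and 2 fell, with a median of -0.60. With each library left out, 2 of the 7 evening rises and 1 morning call passed. LHY (BnaA10g00780D), the morning MYB factor at the core of the clock, had 664, 504 and 852 CPM in untreated, 128, 107 and 164 CPM in chilled and 29.9, 19.1 and 14.8 CPM in frozen leaves. The frozen and chilled libraries were apart (log2 fold change -2.68 ± 0.30, edgeR, adjusted p = 0.000926), and the LHY locus of the C subgenome (BnaC05g00840D) pointed the same way without passing (log2 fold change -1.89 ± 0.32, edgeR, adjusted p = 0.00778). RVE8 (BnaA05g28870D), an activator of evening genes, fell from 2.77, 3.75 and 4.66 to 0.4, 0.36 and 0.269 CPM.

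Of the evening genes, LUX (BnaA06g17950D), a repressor in the evening complex, rose from 1.04, 0.917 and 0.69 to 20.1, 14.1 and 13.3 CPM (log2 fold change 4.13 ± 0.28, edgeR, adjusted p = 9.48e-05). GI (BnaC05g18020D), which links the clock to flowering and cold, stood at 8.45, 8.07 and 9.38 CPM after chilling and at 35.8, 48.3 and 55.6 CPM after freezing (log2 fold change 2.42 ± 0.23, edgeR, adjusted p = 0.000502). APRR1 (TOC1, BnaCnng43250D), the most abundant evening locus per length, had 30.1, 50.8 and 38.0 CPM and 78.2, 102 and 67.8 CPM, and its adjusted p of 0.0356 (edgeR) did not pass. RVE2 (BnaA05g12950D and BnaC06g12130D) was a morning gene that rose, by 1.88 ± 0.23 and 2.09 ± 0.21 on the log2 scale.

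Outside these groups, EBF2, ABCG22 and FRO7 were among the genes that fell. EBF2 (BnaA09g04600D), the F-box protein that removes the ethylene factor EIN3, had 20.8, 17.8 and 23.3 CPM after chilling and 0.97, 0.601 and 0.43 CPM after freezing. The groups were apart, and the log2 fold change was -4.95 ± 0.33 (edgeR, adjusted p = 8.68e-05). ABCG22 (BnaAnng01730D), a transporter that limits water loss through stomata in Arabidopsis, stood at 319, 330.3 and 417 CPM and at 67.0, 51.6 and 71.9 CPM (log2 fold change -2.50 ± 0.22, edgeR, adjusted p = 0.000297). FRO7 (BnaC09g26410D), the chloroplast ferric reductase, had the highest mean level of the genes that fell, at 529, 443 and 436 CPM and at 169.8, 208 and 166 CPM. FRO7 fell by 1.39 on the log2 scale, with an adjusted p of 0.00279 in edgeR and of 0.00570 to 0.0170 with 1 library left out.

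RHA1B, a RING-type ubiquitin ligase, fell by 4.28 on the log2 scale at BnaA09g39200D, from 21.6, 22.8 and 11.7 to 0.799, 1.02 and 1.1 CPM. BRG3 (BnaCnng44050D), another RING ligase, tied to cell death control in Arabidopsis, went from 20.3, 16.9 and 17.4 to 1.2, 1.8 and 1.45 CPM, a log2 fold change of -3.64 ± 0.25. CYP734A1 (BnaA05g00940D), which inactivates brassinosteroids, stood at 286, 188 and 236 CPM after chilling and at 62.1, 64.7 and 75.1 CPM after freezing. The frozen level lay in the range of the untreated leaves (63.8, 47.8 and 97.9 CPM), and its call (adjusted p = 0.00133, edgeR) held in 1 of 6 fits with 1 library left out.

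**Figure D4:**
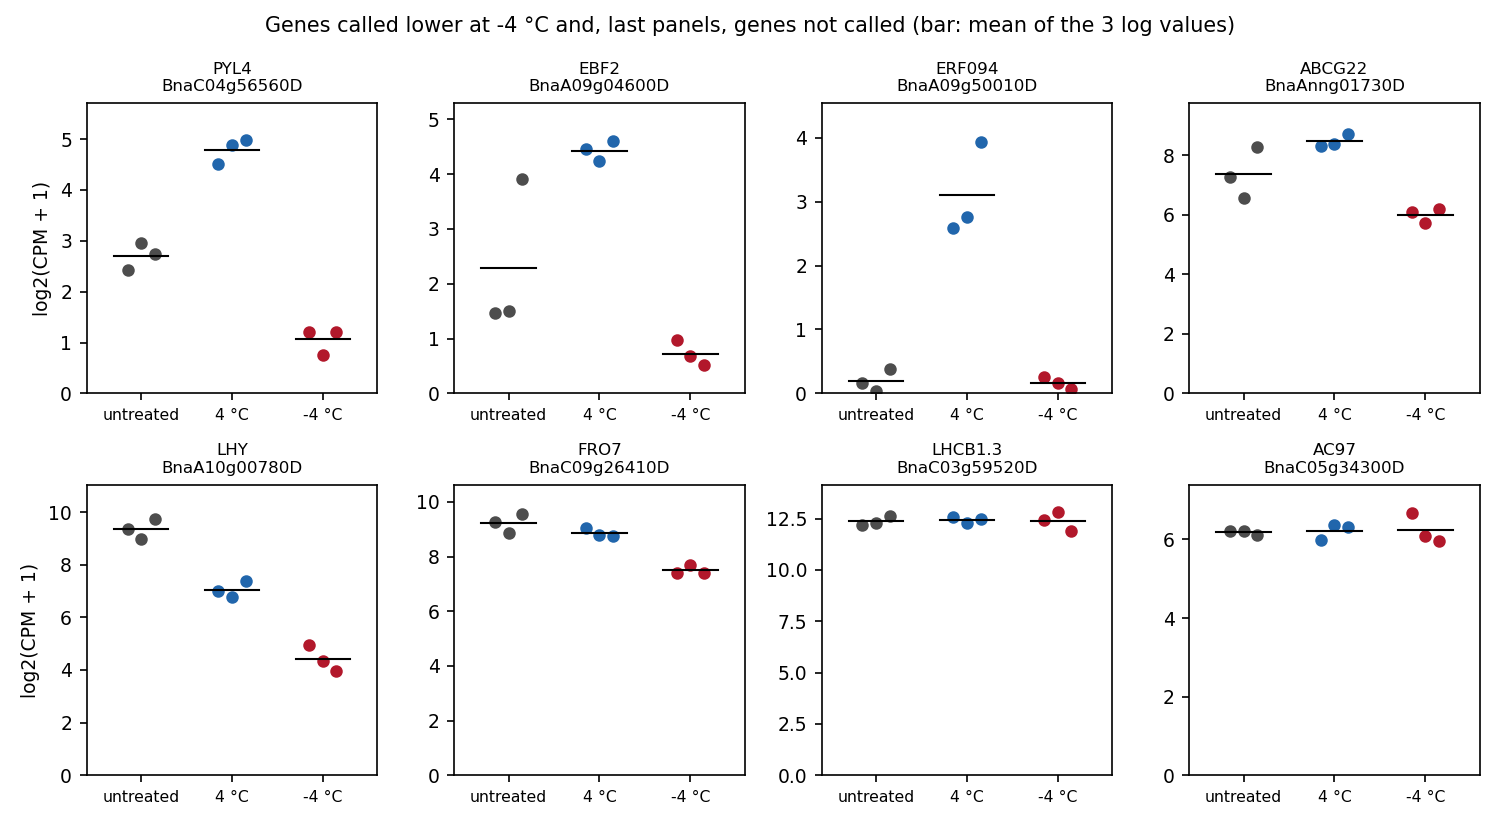
Log2(CPM + 1) of 8 genes in each library (points) with the group mean (line) for untreated (HX17_MB), chilled (HX17_CB, 4 °C) and frozen (HX17_FB, -4 °C) seedlings, 3 libraries each. PYL4, EBF2, ERF094, ABCG22, LHY and FRO7 are lower in all frozen than in all chilled libraries, while LHCB1.3 and the actin gene AC97, shown for contrast, overlap between the groups.

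The large groups of photosynthesis and translation gave no call. None of 67 tested antenna proteins, 107 photosystem subunits, 820 cytosolic and 158 plastid ribosomal proteins, or 100 core histones rose or fell in edgeR, with medians of 0.62, 0.40, 0.35, 0.43 and 0.32. At an unadjusted p under 0.05 the loci that were higher outnumbered those that were lower in each of these groups, by 23 to 2, 30 to 2, 232 to 19, 58 to 2 and 13 to 0. Among all tested genes 6717 were higher and 6233 lower at that level. DESeq2 called 4, 0, 5, 3 and 1 of these loci higher, and 6 lower, all of the cytosolic ribosomal group. LHCB1.3 (BnaC03g59520D), a major light-harvesting protein, had 6040.0, 5056 and 5783 CPM after chilling and 5518, 7118 and 3754 CPM after freezing. Of 79 tested antioxidant enzymes 1 rose (1.27%), of 102 glutathione S-transferases 3 (2.94%), of 90 trehalose and starch loci 2 (2.22%) and of 42 flavonoid loci 2 (4.76%), against 2.38% of all tested genes. Of 145 pathogenesis-related and chitinase loci 11 rose (7.59%), and of 31 lipid loci 3 (9.68%). EdgeR called no fall in these 6 groups, where 5, 5, 7, 7, 7 and 2 loci were lower at an unadjusted p under 0.05 and DESeq2 called 2, 2, 1, 0, 2 and 0 falls. The 11 rises of the pathogenesis-related group carry the symbols GLC1, At2g27500, At5g56590, At1g32860 or At2g01630 or no symbol. None of them carries the symbol PR1 or PR5. With each library left out, 7 of these 11 and none of the 3 lipid rises passed. TPS2 (BnaC05g13110D), of the trehalose-phosphate synthases, rose from 0.138, 0.0834 and 0.172 to 63.0, 23.1 and 20.2 CPM. CSP3 (BnaA07g02430D), a cold shock domain protein that acts as an RNA chaperone, stood at 5.35, 3.77 and 3.62 CPM and at 4.62, 5.56 and 5.59 CPM, and CSP1 (BnaA01g01560D) at 4.14, 2.15 and 3.36 CPM and at 6.74, 6.64 and 8.85 CPM, and neither passed (edgeR, adjusted p = 0.533 and 0.0447).

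Markers of leaf cell types were checked beside these results. Summed FPKM of 40 mesophyll loci, all counted, was 48890.0 to 62690.0 in the chilled and 61280.0 to 78610.0 in the frozen libraries. Guard cell markers (11 of 19 loci counted) summed to 17.3 to 26.1 and 10.4 to 16.6, and epidermal markers (15 of 16) to 27.97 to 40.02 and 10.1 to 21.6, both lower in every frozen library. No locus of these markers was called in edgeR, where 1 guard cell and 4 epidermal loci were lower at an unadjusted p under 0.05, and DESeq2 called 2 epidermal loci lower. Phloem companion cell markers (12 of 13) summed to 130.8 to 339 and 248.5 to 680.4, with all 8 tested loci higher (median log2 fold change 1.08), 4 of them at an unadjusted p under 0.05, none called in edgeR and 2 called higher by DESeq2. The 4 myrosin cell loci were at 0. Root markers (15 of 37) summed to 44.0 to 62.6 and 54.0 to 139.9, flower markers (13 of 20) to 3.76 to 8.80 and 2.88 to 3.80, and seed markers (21 of 77) to 11.2 to 21.4 and 14.8 to 25.1. In bulk leaf tissue, fewer cells of a type and less RNA per cell cannot be told apart, and the part of the guard cell and epidermal markers in the fall of genes such as ABCG22 was not tested.

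The genes that rose were spread over both subgenomes. Of the rises 48.2% lay in the A and 48.6% in the C subgenome, against 44.7% and 48.9% of all tested genes. Transcripts added by the authors' assembly made up 2.86% of the rises and 14.2% of the falls, against 6.21% of the tested genes, and 62.9% of the falls had a Swiss-Prot match against 76.4% of the rises. The median length was 924 bases for rises, 882 for falls and 1074 for all tested genes.

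The same step from 4 °C to -4 °C was measured in HX58 without acclimation, with no library in common. There 2.92% of 53106 tested genes were called, of which 1365 rose (2.57%) and 187 fell (0.352%). Of the 1223 HX17 rises 794 also rose in HX58, which is 64.9% of the HX17 list and 58.2% of the HX58 list, and none fell. Of the 240 HX17 falls 59 also fell, 24.6% and 31.6% of the lists. With 1 library left out HX58 gave 576 to 1172 rises and 25 to 271 falls. A test of the difference between the varieties found no gene among 57968 (0.0%) in edgeR, where 6682 genes had an unadjusted p under 0.05 (11.5%), and DESeq2 found 111. PYL4 (BnaC04g56560D) had a log2 fold change of -2.21 ± 0.40 in HX58 and -4.61 ± 0.31 in HX17, and the difference did not pass (edgeR, adjusted p = 0.213).

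After acclimation, the step from 4 °C to -4 °C in HX17 shares no library with the main comparison either. It called 4.22% of 49135 tested genes, with 1648 rises (3.35%) and 426 falls (0.867%). Of the 1223 rises 764 were shared, 62.5% of the unacclimated and 46.4% of the acclimated list, and of the 240 falls 59 were shared, 24.6% and 13.9%. With 1 library left out the acclimated comparison gave 726 to 1563 rises and 100 to 490 falls. The interaction of acclimation and freezing called 58 genes with the higher change without acclimation (0.106%) and 42 with the lower (0.0768%), of 54709 tested, and DESeq2 called 1032 and 865. With 1 library left out 3 to 47 and 2 to 24 genes were called, the fewest without HX17_FA replicate 1. Of these 58, 35 were among the 1223 rises, and of the 42, 5 were among the 240 falls.

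The LTI65 locus on chromosome A02 was among the 58 and kept that call with each of the 12 libraries left out. At BnaA02g10970D it rose by 5.97 ± 0.25 on the log2 scale without acclimation and had a log2 fold change of -0.01 ± 0.37 with acclimation, where mean levels were 382 CPM at 4 °C and 365 CPM at -4 °C. The difference of 5.995 ± 0.49 passed (edgeR, adjusted p = 0.000191). ERD10 (BnaC05g15780D) rose in both, by 5.08 ± 0.28 and 1.64 ± 0.25, and that difference of 3.46 ± 0.37 passed as well (edgeR, adjusted p = 0.00132) and in 10 of 12 fits with 1 library left out. DREB1B (BnaA08g30930D) rose by 6.50 ± 0.37 and 4.09 ± 0.38, and its difference did not pass (edgeR, adjusted p = 0.0226). In the other direction, XTH33 (BnaC08g14380D) fell without acclimation and stood at a log2 fold change of 0.61 ± 0.34 with it, a difference of -4.79 ± 0.69 (edgeR, adjusted p = 0.00490) that held in 1 of 12 fits with 1 library left out.

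Of the 1223 rises, 4 fell after acclimation. These were COR413PM1 (BnaCnng37450D), a plasma membrane protein of the cold response, DNAJB6 (BnaC01g37160D), a co-chaperone, the RING finger protein ATL45 (BnaC07g45620D) and 1 transcript added by the authors' assembly. COR413PM1 went from a mean of 44.6 to 173 CPM without acclimation (log2 fold change 1.94, edgeR, adjusted p = 0.00220) and from 172 to 25.0 CPM with it (log2 fold change -2.72, edgeR, adjusted p = 0.00170). Its rise without acclimation did not keep its call in any fit with 1 library left out. The rises of the others lay near the threshold, with an adjusted p of 0.00350 to 0.00457 (edgeR).

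**Figure D5:**
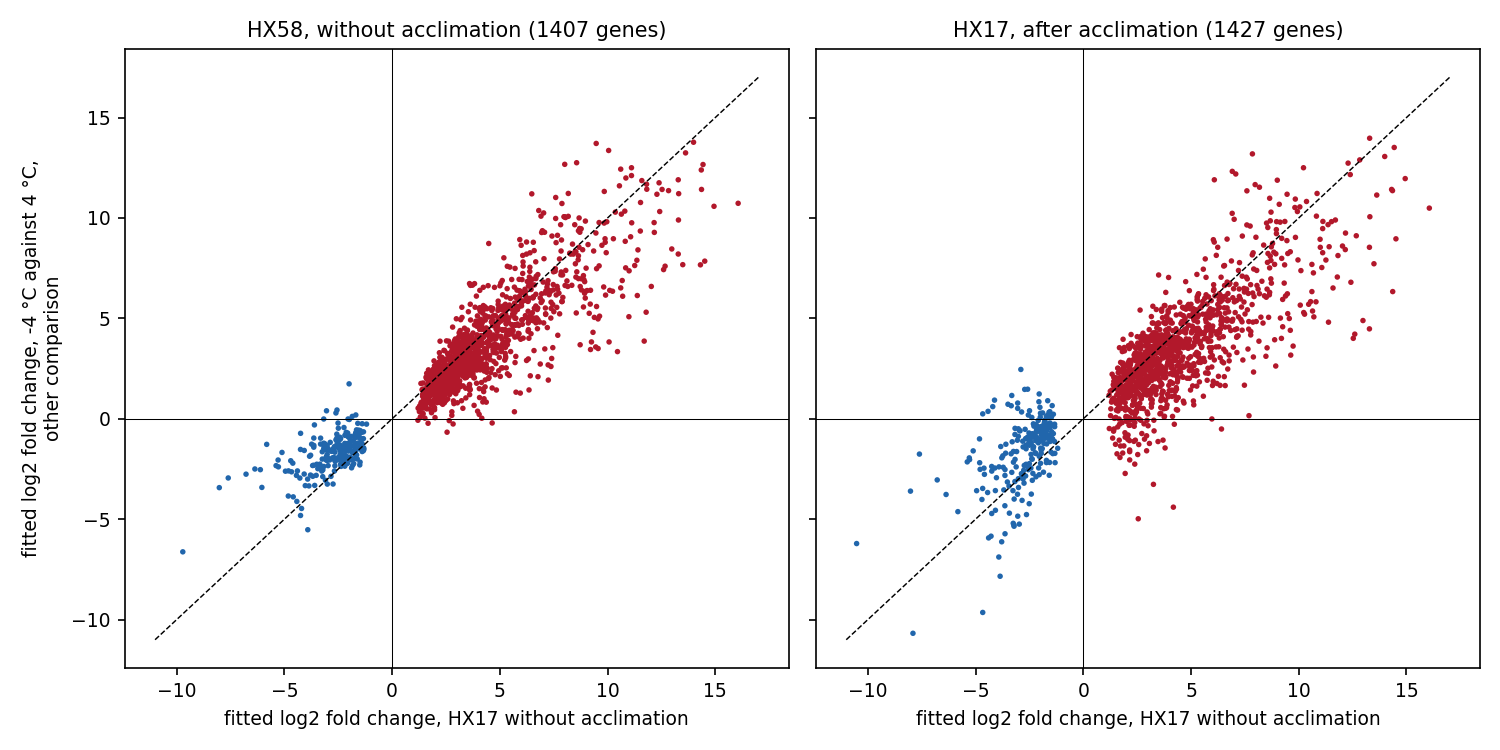
Fitted log2 fold change of freezing over chilling in HX17 without acclimation (horizontal axis) against HX58 without acclimation (left, 1407 genes) and HX17 after acclimation (right, 1427 genes) for genes that rose or fell. The rises in HX17 lie mostly above 0 on both vertical axes, where 794 and 764 of 1223 rose too (red, rises; blue, falls; dashed line, equal change), and fitted values of genes with 0 counts depend on the prior count of the model.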

How the data were processed

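Leaf mRNA of 36 libraries, 3 in each of 12 groups, was sequenced as read pairs by the study. The deposited counts of reads per gene were made by the authors with HISAT2 2.0.4 on the Genoscope Brassica napus genome (no version is named in the sources used here) and HTSeq 0.9.1, with transcripts of their own assembly added. The deposited FPKM values are these counts per gene length and library total, except for 1965 of the 5300 added transcripts, and served only to rank levels per length and to sum markers. Deposited group means and the columns of the authors' own fold changes and p-values were not used. Gene names are the deposited Swiss-Prot matches, so a symbol names the closest match and not a proven orthologue.

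Counts were tested with edgeR 4.0.16 in R 4.3.3, with TMM scaling, filterByExpr (minimum count 10, minimum total 15) and the quasi-likelihood test, each pair of groups on its own 6 libraries and each interaction on 12. A gene was called at a fold change of at least 2 and a Benjamini-Hochberg adjusted p under 0.005, as the results of the study state, while its methods give an adjusted p under 0.05 (DESeq). The step was tested on simulated data. A group at 0 counts was set to 3 counts over the group, and ratios against 1 to 3 counts carry a 95% exact interval for counting error. Summaries used Python 3.11.15, pandas 2.3.3, numpy 2.4.6 and scipy 1.17.1, and plots matplotlib 3.10.9. DESeq2 1.42.0, RLE scaling, no filter, a replicate block, thinning to the smallest library, 1 model of all 36 libraries, an adjusted p under 0.05 without a fold limit and leaving out each library were the alternatives.

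The groups, gene lists and genes were chosen with earlier results of these data known. Genes named are, by rule, the 8 largest rises and falls with a mean of at least 1 CPM that passed with each library left out, the 5 most abundant in each direction, for each list the most abundant locus per length and the called locus with the smallest adjusted p, the first of each interaction, and loci the study names by ID. Genes named outside this rule, and the further gene families of the closing section, were chosen after their values were seen. Same-numbered libraries of HX17_CB and HX17_FB deviated from their group means with correlations of -0.0444, -0.00556 and -0.216, so no shared deviation by number was seen. With 3 libraries a group this cannot show whether same-numbered libraries were handled together. Promoter motifs were not analysed here.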

Additional observations from a re-analysis of the deposited data

Results flagged for a closer look

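The step from 4 °C to -4 °C in HX17 differed between seedlings without and with acclimation, by the test of that difference in edgeR, at 11 of the genes examined. Values are the log2 fold change without acclimation minus that with acclimation. No gene examined passed the test of the difference between HX17 and HX58.

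In 9 of the 11 the change was higher without acclimation. LTI65 differed by 4.47 ± 0.44 at BnaC02g15270D (adjusted p = 0.000930), with log2 fold changes of 5.57 and 1.12, and by 5.995 ± 0.49 at BnaA02g10970D (adjusted p = 0.000191), with 5.97 and -0.01. The dehydrins ERD10 (BnaC05g15780D) and ERD14 (BnaA02g36030D) rose in both and differed by 3.46 ± 0.37 and 2.85 ± 0.31 (adjusted p = 0.00132 for each). COR413PM1 (BnaA07g03740D) had log2 fold changes of 2.15 and -2.05, a difference of 4.22 ± 0.48 (adjusted p = 0.00170). ABF1 (BnaC06g02640D), a bZIP factor of ABA responses, had 2.08 and -0.81, a difference of 2.90 ± 0.37 (adjusted p = 0.00293). GI (BnaC05g18020D) had 2.42 and -1.06, a difference of 3.50 ± 0.43 (adjusted p = 0.00253). BnaA01g35190D, with no Swiss-Prot match, differed by 4.52 ± 0.33 (adjusted p = 9.62e-05). CML23 (BnaC06g43540D), with 1 count in the chilled libraries without acclimation, differed by 6.51 ± 0.82 (adjusted p = 0.00267), a value that depends on that count.

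In the other direction, UGT72B3 (BnaC05g00580D), a glycosyltransferase, had log2 fold changes of 0.03 and 4.22, a difference of -4.16 ± 0.30 (adjusted p = 9.62e-05), and XTH33 (BnaC08g14380D) differed by -4.79 ± 0.69 (adjusted p = 0.00490). With each of the 12 libraries left out in turn, LTI65 at BnaA02g10970D, BnaA01g35190D and UGT72B3 passed in all 12 fits and LTI65 at BnaC02g15270D in 11. ERD10 and ERD14 passed in 10 fits, COR413PM1 in 8, GI in 5, CML23 in 3, ABF1 in 2 and XTH33 in 1. Acclimated seedlings had a shorter time of growth at 20/16 °C, which cannot be told apart from the time at 4 °C.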

How the results depend on the processing

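RLE scaling and thinning to the smallest library kept every count of calls within 1.5 times. Of the genes named, none changed direction while called. Counts below are rises, then falls. For HX17 without acclimation (1223 and 240), DESeq2 gave 2879 and 1380, no filter on low counts 1852 and 555, 1 model of all 36 libraries 2204 and 984, and an adjusted p under 0.05 without a fold limit 2936 and 1767. Leaving out 1 library gave 701 to 860 and 70 to 120, and moved rises by over 1.5 times without CB1 (701), CB2 (714), FB1 (761) or FB3 (789) and falls without CB1 (116), CB2 (103), CB3 (98), FB1 (74), FB2 (120) or FB3 (70). The replicate block gave 695 and 61, and 22 and 9 for the acclimation interaction. It is not known whether the replicate numbers pair the libraries. For HX58 (1365 and 187), DESeq2 gave 3404 and 1078, the adjusted p under 0.05 3679 and 1516, no filter 363 falls, the model of all libraries 512 falls, and leaving out 1 library 576 to 1172 and 25 to 271. For acclimated HX17 (1648 and 426), DESeq2 gave 3601 and 1744, no filter 2511 and 842, the model of all libraries 2776 and 1899, the adjusted p under 0.05 4081 and 2184, and leaving out 1 library 726 to 1563 and 100 to 490. For the variety interaction (0 and 0), DESeq2 gave 53 and 58, no filter 3 and 5, the model of all libraries 5 and 4, the adjusted p under 0.05 3 and 6, and leaving out 1 library 0 to 1 and 0. For the acclimation interaction (58 and 42), DESeq2 gave 1032 and 865, no filter 236 and 173, the model of all libraries 668 and 457, the adjusted p under 0.05 1094 and 971, and leaving out 1 library 3 to 47 and 2 to 24. The cause of these shifts was not tested.

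Reads shared by A and C copies, unstated strand use and 3 libraries a group limit single loci.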

Other observations

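The gene families below were chosen after their values were seen, so their counts describe these libraries and support no statement about a family. Each count can be read against the 2.38% of all tested genes that rose and the 0.467% that fell. HSPRO-like proteins, named for a nematode resistance gene of sugar beet, rose at 8 of 8 tested loci, with a median log2 fold change of 5.80. HSPRO2 (BnaC03g22390D) stood at 5, 1.29 and 3.6 CPM in the chilled and at 335, 321 and 203 CPM in the frozen libraries (log2 fold change 6.41 ± 0.53, edgeR, adjusted p = 0.000229). Remorins, proteins of plasma membrane domains, rose at 5 of 5 tested loci and LURP-one-related proteins at 10 of 24. Nudix hydrolases rose at 11 of 73 tested loci, and NUDT21 (BnaC02g22250D) went from 0.692, 0.792 and 1.25 to 419, 264 and 239 CPM. U-box proteins, a class of ubiquitin ligases, rose at 14 of 159 tested loci while their median was -0.03. YLS9 (BnaCnng73290D), a leaf senescence-associated gene in Arabidopsis, rose from 10.04, 7.38 and 12.4 to 1188, 624 and 858 CPM, and untreated leaves held 109, 144 and 128 CPM. The zinc finger CCCH domain protein 47 (BnaC08g26910D) was likewise lowest after chilling, with 176, 186 and 197 CPM in untreated, 4.38, 5.86 and 7.5 CPM in chilled and 202, 303 and 203 CPM in frozen leaves.

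Polyamine and amino acid enzymes rose at a few loci. PAO1 (BnaC03g06000D), a polyamine oxidase, went from 0.45, 0.5 and 0.0431 to 413, 110.1 and 156 CPM (log2 fold change 9.35 ± 0.85, edgeR, adjusted p = 0.000364). SPE2 (BnaC03g65810D), an arginine decarboxylase that starts polyamine synthesis, rose from 33.5, 38.0 and 28.3 to 427, 146 and 162 CPM, and kept its call in 2 of 6 fits with 1 library left out. Among genes that fell, EIN3-binding F-box proteins did so at 4 of 7 tested loci and RHA1B ligases at 6 of 13, with medians of -2.52 and -3.43. Of the RHA1B loci 1 rose, and 2 calls of each family passed with each library left out. CRY1 (BnaAnng13370D), a blue light receptor, fell from 89.9, 80.5 and 88.0 to 36.4, 32.2 and 35.7 CPM. ARR9 (BnaA09g36380D), a response regulator of cytokinin signalling, fell from 47.5, 43.4 and 31.9 to 2.66, 3.81 and 6.43 CPM (log2 fold change -3.26 ± 0.36, edgeR). CYP82G1 (BnaA03g57690D), an enzyme of volatile terpene synthesis, fell from 178, 56.3 and 238 to 12.7, 14.4 and 14.7 CPM.

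Against 1 count in the chilled group, ratios carry only a counting interval. ZAT12 (BnaA02g06790D), a zinc finger factor of the cold response, was 1562 times higher in frozen leaves (95% interval 279.8 to 61740.0), and CML23 (BnaC06g43540D) 4100.0 times higher (735.3 to 162000.0).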
